A study of Mus musculus with 5 samples.

Results

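The genes described here are 31 mouse genes of the unfolded protein response and the integrated stress response, taken as a named list of known pathway genes, which was drawn up with earlier results of these data known, out of 20661 autosomal protein-coding genes. They comprise 7 genes of the stress sensors and their processing, 4 transcription factor genes, 10 genes of chaperones and folding enzymes, 4 genes of ER-associated degradation, and 6 genes of feedback and stress effectors. ChIP-seq, which sequences the DNA recovered with an antibody, here one to BRG1, was done on primary bone marrow-derived macrophages (BMDMs) of Baf60a knockout and wild-type mice. The groups were oxLDL_KO and oxLDL_WT, cells of each genotype labelled with oxLDL (oxidised low-density lipoprotein), and KO and WT, cells of each genotype with no such label. Each group is 1 library, and a library of input DNA made without antibody was not analysed here. How the Baf60a allele was deleted, how many mice were used, whether they were pooled, their sex and age, and the oxLDL dose and time were not stated in the sources used here. A peak counted for a gene when its summit, the base with the most overlapping fragments, lay in the mm10 gene body or within 20 kb of it. Under this rule the genes held 11 of 4668 peaks in oxLDL_KO, 52 of 9907 in oxLDL_WT, 1 of 139 in KO and 1 of 237 in WT.

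The endoplasmic reticulum (ER) folds secreted and membrane proteins, and the unfolded protein response is the program by which a cell answers an overload of that work. IRE1, PERK and ATF6 span the ER membrane and sense unfolded protein: IRE1 splices the mRNA of XBP1, PERK phosphorylates the translation factor eIF2α, and ATF6 is cut in the Golgi to release a transcription factor. In the integrated stress response, PERK, HRI and GCN2 all phosphorylate eIF2α, which lowers general translation while the mRNA of ATF4 is translated more. In macrophages this response is known to be active under lipid load, and XBP1, ATF4 and CHOP are its best-known transcription factors. Smarca4 encodes BRG1, the motor of SWI/SNF complexes, which move nucleosomes, and Smarcd1 encodes BAF60a, a further subunit.

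The peak lists differed greatly in length, and a gene without a listed peak had no signal past the caller's limit, which is not a measurement of no binding. The lowest −log10 p of a list was 3.96 in oxLDL_KO, 3.67 in oxLDL_WT, 5.33 in KO and 5.13 in WT. The lowest −log10 q was similar, at 1.01 in oxLDL_KO, 1.01 in oxLDL_WT, 1.07 in KO and 1.02 in WT. Read totals are unknown from peak lists, but the fragment pileup and the local background of each peak could be recovered, and the lowest background was 3.42 fragments in oxLDL_KO, 3.76 in oxLDL_WT, 3.84 in KO and 2.70 in WT. Macrophage marker genes had a peak under the same rule at 9 of 10 in oxLDL_KO and 10 of 10 in oxLDL_WT, where all autosomal protein-coding genes had one at 22.3% in oxLDL_KO and 35.1% in oxLDL_WT. Dendritic cell markers had one at 1 of 4 in oxLDL_KO and 2 of 4 in oxLDL_WT, neutrophil markers at 1 of 6 in each, and erythroid markers at 0 of 4 in oxLDL_KO and 1 of 4 in oxLDL_WT. T and B lymphocyte markers had one at 2 of 8 in oxLDL_KO and 1 of 8 in oxLDL_WT, and fibroblast markers at 0 of 6 in each. In the untreated lists 1 of 10 macrophage markers had a peak in KO and 1 of 10 in WT. Smarcd1, the targeted gene, had 0 peaks in oxLDL_KO, 2 in oxLDL_WT, 0 in KO and 0 in WT. A BRG1 peak list does not test whether Smarcd1 was deleted. Each group has only 1 library, so replicate spread is unknown and no difference was tested. Intervals are Wilson 95% intervals, which hold counting error alone.

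Many genes of this response carry an ER stress response element (ERSE) before their start, a known site of ATF6 and XBP1 action made of CCAAT, a spacer and CCACG; a shorter form, ERSE-II, is made of ATTGG, a spacer base and CCACG. The 250 bases before each listed gene start were taken from RefSeq on GRCm38.p6, the assembly of mm10, and 30 of the 31 genes matched; Atf6 did not. ERSE, searched on both strands, was found at 7 of the 30 genes (Calr, Canx, Dnajc3, Hsp90b1, Hspa5, Pdia6 and Syvn1), against 0.113% of all 32851 listed promoters, and ERSE-II at Herpud1, against 0.0304% of them. The motif list was chosen from knowledge of this pathway, so these counts describe the genes and not the ChIP. The sequences shown here contrast genes with and without a BRG1 peak near these elements, with the fixed letters of the element in capitals. Herpud1 (chr8:94386179-94386428, plus strand) is shown because its ERSE-II lay under an oxLDL_WT peak; Dnajc3 (chr14:118937682-118937931, plus strand) because peaks of both oxLDL lists lay just after its start; Hsp90b1 (chr10:86705445-86705694, minus strand) and Calr (chr8:84846932-84847181, minus strand) because an oxLDL_WT peak lay before the element; Hspa5 (chr2:34771840-34772089, plus strand) and Syvn1 (chr19:6046326-6046575, plus strand) because no list had a summit within 1 kb of their start. In Calr, and at the second element of Hsp90b1, the element reads on the opposite strand, so its letters appear as CGTGG and ATTGG.
Herpud1: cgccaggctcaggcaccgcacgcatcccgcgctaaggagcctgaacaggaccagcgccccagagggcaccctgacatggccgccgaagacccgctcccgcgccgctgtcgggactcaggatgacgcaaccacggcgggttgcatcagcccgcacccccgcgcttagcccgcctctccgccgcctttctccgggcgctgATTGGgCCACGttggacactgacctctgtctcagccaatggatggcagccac
Dnajc3: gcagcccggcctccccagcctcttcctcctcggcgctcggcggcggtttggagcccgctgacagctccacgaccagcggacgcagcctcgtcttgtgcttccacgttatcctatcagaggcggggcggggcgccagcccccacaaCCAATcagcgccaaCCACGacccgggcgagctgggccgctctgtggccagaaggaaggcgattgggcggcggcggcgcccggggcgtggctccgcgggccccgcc
Hsp90b1: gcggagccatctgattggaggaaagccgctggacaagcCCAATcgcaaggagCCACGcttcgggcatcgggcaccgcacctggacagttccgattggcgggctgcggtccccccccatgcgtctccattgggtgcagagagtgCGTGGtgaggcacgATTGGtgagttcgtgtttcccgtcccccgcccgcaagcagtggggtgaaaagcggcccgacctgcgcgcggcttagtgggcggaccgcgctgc
Calr: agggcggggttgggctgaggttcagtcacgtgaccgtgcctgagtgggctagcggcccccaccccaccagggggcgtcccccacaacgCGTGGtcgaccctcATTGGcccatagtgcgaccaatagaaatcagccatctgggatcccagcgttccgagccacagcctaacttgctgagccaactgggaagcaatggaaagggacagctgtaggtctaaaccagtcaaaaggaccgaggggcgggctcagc
Hspa5: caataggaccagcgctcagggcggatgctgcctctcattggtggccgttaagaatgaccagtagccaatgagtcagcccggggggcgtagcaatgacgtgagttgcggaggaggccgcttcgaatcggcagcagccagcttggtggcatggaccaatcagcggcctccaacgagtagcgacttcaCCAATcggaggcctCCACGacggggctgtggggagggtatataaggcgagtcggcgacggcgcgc
Syvn1: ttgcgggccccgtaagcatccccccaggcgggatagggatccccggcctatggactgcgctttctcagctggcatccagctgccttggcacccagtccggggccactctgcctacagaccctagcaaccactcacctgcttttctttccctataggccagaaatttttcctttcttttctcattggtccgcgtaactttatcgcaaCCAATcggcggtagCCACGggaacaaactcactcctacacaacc

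BRG1 peaks lay at 10 of the 31 genes in oxLDL_KO (32.3%, interval 18.6 to 49.9) and at 24 of 31 in oxLDL_WT (77.4%, interval 60.2 to 88.6). Among all autosomal protein-coding genes the same rule found a peak at 22.3% in oxLDL_KO and 35.1% in oxLDL_WT. The oxLDL_WT share thus lay above that of all genes, a comparison that is not independent of how the list was drawn up, whereas the interval of the oxLDL_KO share holds that of all genes. Peaks in both lists were found at 10 genes (background 18.6%), in oxLDL_KO alone at 0 (background 3.76%) and in oxLDL_WT alone at 14 (background 16.6%), and 7 genes had no peak in either. The 0 became 1, Eif2ak1, with gene bodies only, the nearest gene only, a −log10 q limit of 2 or a common p limit, and 2, with Eif2ak3, within 1 kb of gene ends. Of the 24 genes with an oxLDL_WT peak, 41.7% also had one in oxLDL_KO (interval 24.5 to 61.2), against 52.8% of all genes with an oxLDL_WT peak, and the interval holds the value of all genes. The oxLDL_KO list is shorter than the oxLDL_WT list as a whole, and how much of the difference at these genes follows library quality or depth cannot be told apart from genotype with 1 library each.

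By role, the sensor group had a peak at 4 of 7 genes in oxLDL_KO and 7 of 7 in oxLDL_WT, and the transcription factors at 2 of 4 in oxLDL_KO and 4 of 4 in oxLDL_WT. The chaperones counted 3 of 10 in oxLDL_KO and 7 of 10 in oxLDL_WT, and the degradation genes 1 of 4 in oxLDL_KO and 3 of 4 in oxLDL_WT. The feedback and effector genes counted 0 of 6 in oxLDL_KO and 3 of 6 in oxLDL_WT. All genes had a peak at 22.3% in oxLDL_KO and 35.1% in oxLDL_WT, but the roles also differed in gene length and so in window length. The median gene body was 84.9 kb for the sensors, 4.88 kb for the transcription factors, 17.8 kb for the chaperones, 22.1 kb for the degradation genes and 4.99 kb for the feedback and effector genes. These groups are small: for the 0 of 6 the interval reaches 39.0%, and no difference between roles was tested.

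**Figure D1:**
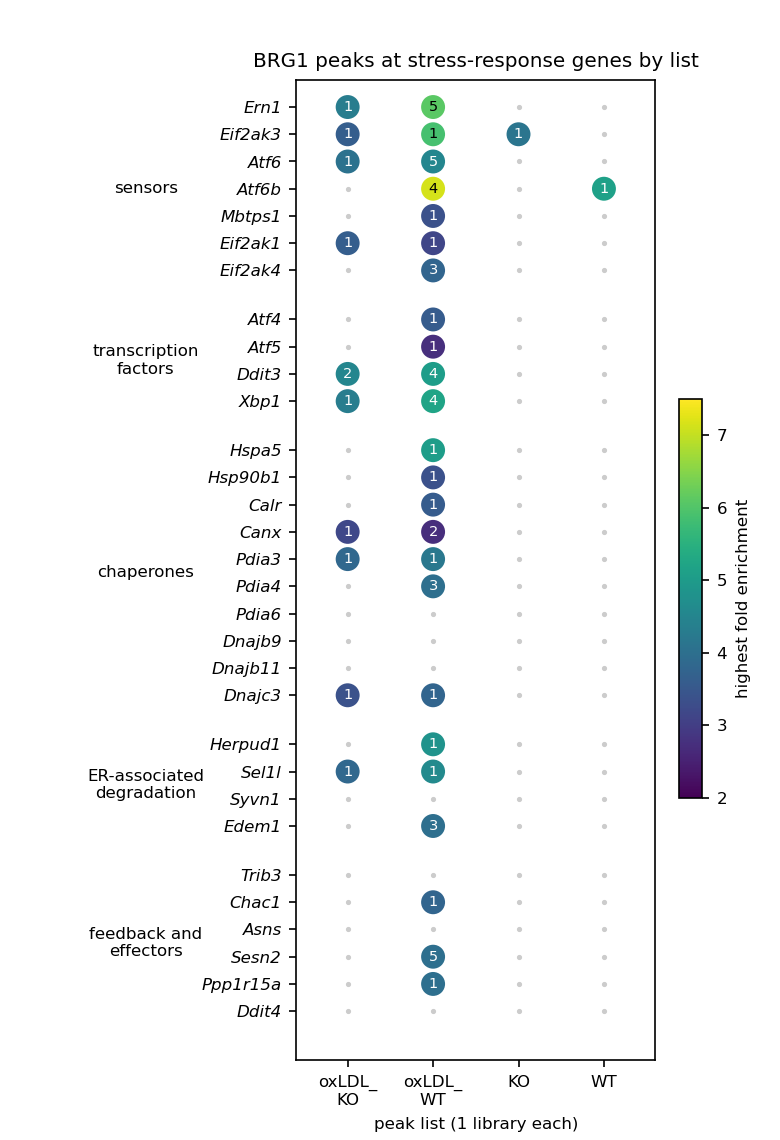
Number of BRG1 peaks (digit in each circle) with the summit in the gene body or within 20 kb, for 31 stress-response genes (rows, by role) in the 4 lists (columns, 1 library each); colour gives the highest fold enrichment and a small grey dot means no peak. The oxLDL_WT column is filled at 24 genes and the oxLDL_KO column at 10, all 10 of them also filled in oxLDL_WT.

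A longer gene gives a longer window, so the counts were also read by gene length; the median gene body was 17.4 kb for the 31 genes and 17.5 kb for all genes. Among genes of up to 10 kb, 14.3% of 14 stress genes had an oxLDL_KO peak and 71.4% an oxLDL_WT peak, where all genes of that length had 14.5% in oxLDL_KO and 24.4% in oxLDL_WT. From 10 to 30 kb, 14.3% of 7 stress genes had an oxLDL_KO peak and 57.1% an oxLDL_WT peak, where all genes had 22.8% in oxLDL_KO and 37.2% in oxLDL_WT. From 30 to 80 kb, 66.7% of 6 stress genes had an oxLDL_KO peak and 100.0% an oxLDL_WT peak, where all genes had 29.3% in oxLDL_KO and 44.6% in oxLDL_WT. Above 80 kb, 75.0% of 4 stress genes had an oxLDL_KO peak and 100.0% an oxLDL_WT peak, where all genes had 30.6% in oxLDL_KO and 44.0% in oxLDL_WT. The oxLDL_WT share of the stress genes was above that of all genes in each of the 4 length classes. The oxLDL_KO share was above it only in the 2 classes of longer genes, which hold 7 of its 10 genes.

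**Figure D2:**
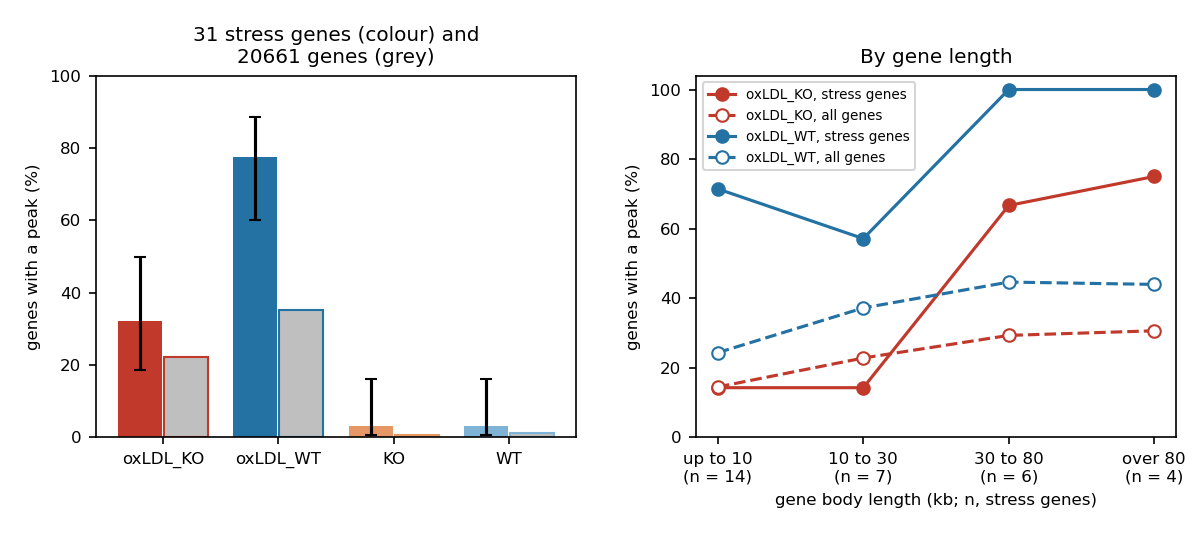
Left, share of genes with a BRG1 peak (%, vertical axis) among 31 stress genes (coloured bars, with Wilson 95% intervals) and among 20661 autosomal protein-coding genes (grey bars) in the 4 lists; right, the same share by gene body length in the oxLDL lists, filled points for stress genes and open points for all genes. The oxLDL_WT stress genes lie above all genes in each length class, and the oxLDL_KO stress genes above 30 kb only.

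Among the sensors, Ern1, which encodes the kinase and RNase IRE1α (chromosome 11, 106397620 to 106487796, minus strand), had 1 peak in oxLDL_KO and 5 in oxLDL_WT, and 0 in KO and WT. The oxLDL_KO peak had its summit 399 bp after the start, with a fold enrichment over local background of 4.30 and a pileup of 18 fragments. In oxLDL_WT a peak of 864 bp covered it, with the summit 152 bp after the start, a fold enrichment of 4.20 and a pileup of 19. The other oxLDL_WT summits lay 378 bp before the start (4.62) and inside the gene at 12.5 kb (4.41), 58.3 kb (3.36) and 68.0 kb (6.09). The highest of them, at 68.0 kb, had a −log10 q of 11.1 and no counterpart in oxLDL_KO, so the lists met at the start of Ern1 and not inside it.

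Eif2ak3, which encodes PERK (chromosome 6, 70844484 to 70905241, plus strand), had 1 peak each in oxLDL_KO, oxLDL_WT and KO, at 2 different places. The oxLDL_KO summit lay 180 bp after the start with a fold enrichment of 3.62 and a pileup of 15. The oxLDL_WT summit lay inside the gene, 11.5 kb after the start, with 5.88 and a pileup of 27, a higher fold than at 96.8% of the peaks of its list. The KO peak lay at this inner site, with its summit 40 bp from the oxLDL_WT one, a fold enrichment of 4.13 and a pileup of 19. The inner site was thus listed in KO but not WT, and in oxLDL_WT but not oxLDL_KO, while the start was listed in oxLDL_KO alone. Among the 56 sites of the 31 genes, it was the only one with a KO peak.

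Atf6, the largest of the 31 genes (chromosome 1, 170704457 to 170868585, strand not given in the tables used), had 1 peak in oxLDL_KO and 5 in oxLDL_WT. The oxLDL_KO peak, with its summit at 170796173 inside the gene (4.07, pileup 17), shared all of its 232 bp with an oxLDL_WT peak (3.99, pileup 18). The other oxLDL_WT summits lay at 170703571, just outside the gene (2.88), and at 170709399 (4.19), 170854127 (4.53) and 170867398 (3.99) inside it. Its paralogue Atf6b (chromosome 17, 34647146 to 34655074, plus strand) had 0 peaks in oxLDL_KO, 4 in oxLDL_WT, 0 in KO and 1 in WT. The highest oxLDL_WT peak of all the stress genes was there, 7.20 kb before the start, with a fold enrichment of 7.14, a pileup of 33 and a −log10 q of 15.4. The WT peak overlapped it, with its summit 45 bp away, a fold enrichment of 5.13 and a pileup of 18. This site, in WT and oxLDL_WT and in neither knockout list, lies between genes. It is 1919 bp from the nearest edge of Ppt2 and closer to that gene than to Atf6b. The remaining oxLDL_WT summits at Atf6b lay 15.4 kb (2.94) and 13.5 kb (3.78) before the start, both inside Ppt2, and 2.58 kb after the start (3.57). The summit at 15.4 kb lay inside Prrt1 as well.

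Of the kinases that answer other stresses, Eif2ak1, which encodes the haem-regulated kinase HRI, had a summit 239 bp after its start in oxLDL_KO (3.62, pileup 15). In oxLDL_WT its 1 peak lay 6.98 kb beyond the other end of the gene, inside Aimp2 (3.15, pileup 14), so the lists named the gene by different sites. Eif2ak4, which encodes the amino acid sensor GCN2, had 0 peaks in oxLDL_KO and 3 in oxLDL_WT, at 136 bp (3.78) and 956 bp (3.75) from its nearest listed starts and 16.4 kb beyond the gene (3.36). Mbtps1, which encodes the protease that makes the first cut in ATF6, had 0 peaks in oxLDL_KO and 1 in oxLDL_WT, 16.2 kb outside the gene and inside Hsdl1 (3.36).

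Among the transcription factors, Xbp1 (chromosome 11, 5520641 to 5525993, plus strand) had 1 peak in oxLDL_KO and 4 in oxLDL_WT. The shared site lay upstream: the oxLDL_KO summit was 8.61 kb before the start (4.30, pileup 18) and the oxLDL_WT summit 8.43 kb before it (4.83, pileup 22), with no nearer protein-coding gene than Xbp1. In oxLDL_WT a further upstream summit lay 11.2 kb before the start (5.21), and a summit lay 666 bp after the start (4.41). The last oxLDL_WT summit lay 16.0 kb beyond the gene and inside Ccdc117 (2.94).

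Ddit3, which encodes CHOP (chromosome 10, 127290793 to 127296291, plus strand), had 2 peaks in oxLDL_KO and 4 in oxLDL_WT. The oxLDL_WT peaks formed a row across the start, with summits 2.62 kb (5.04), 1.07 kb (3.57) and 491 bp (3.78) before it and 485 bp after it (4.17). The widest of them spanned 1042 bp, wider than 95.4% of the list. In oxLDL_KO the row was represented at 1 place, 1.24 kb before the start (3.17, pileup 13), where the oxLDL_WT peak had a pileup of 16. These upstream summits also lie inside the neighbouring gene Mbd6. The other oxLDL_KO peak lay 16.5 kb beyond the gene, 976 bp from Mars1, and had the highest fold enrichment of the 11 oxLDL_KO peaks, 4.53. Atf4, which encodes the central factor of the integrated stress response, and its relative Atf5 had 0 peaks in oxLDL_KO and 1 each in oxLDL_WT. The Atf4 summit lay 1.04 kb after the start (3.57), and the Atf5 summit 3.54 kb before the start, inside Il4i1b and Nup62 (2.74).

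**Figure D3:**
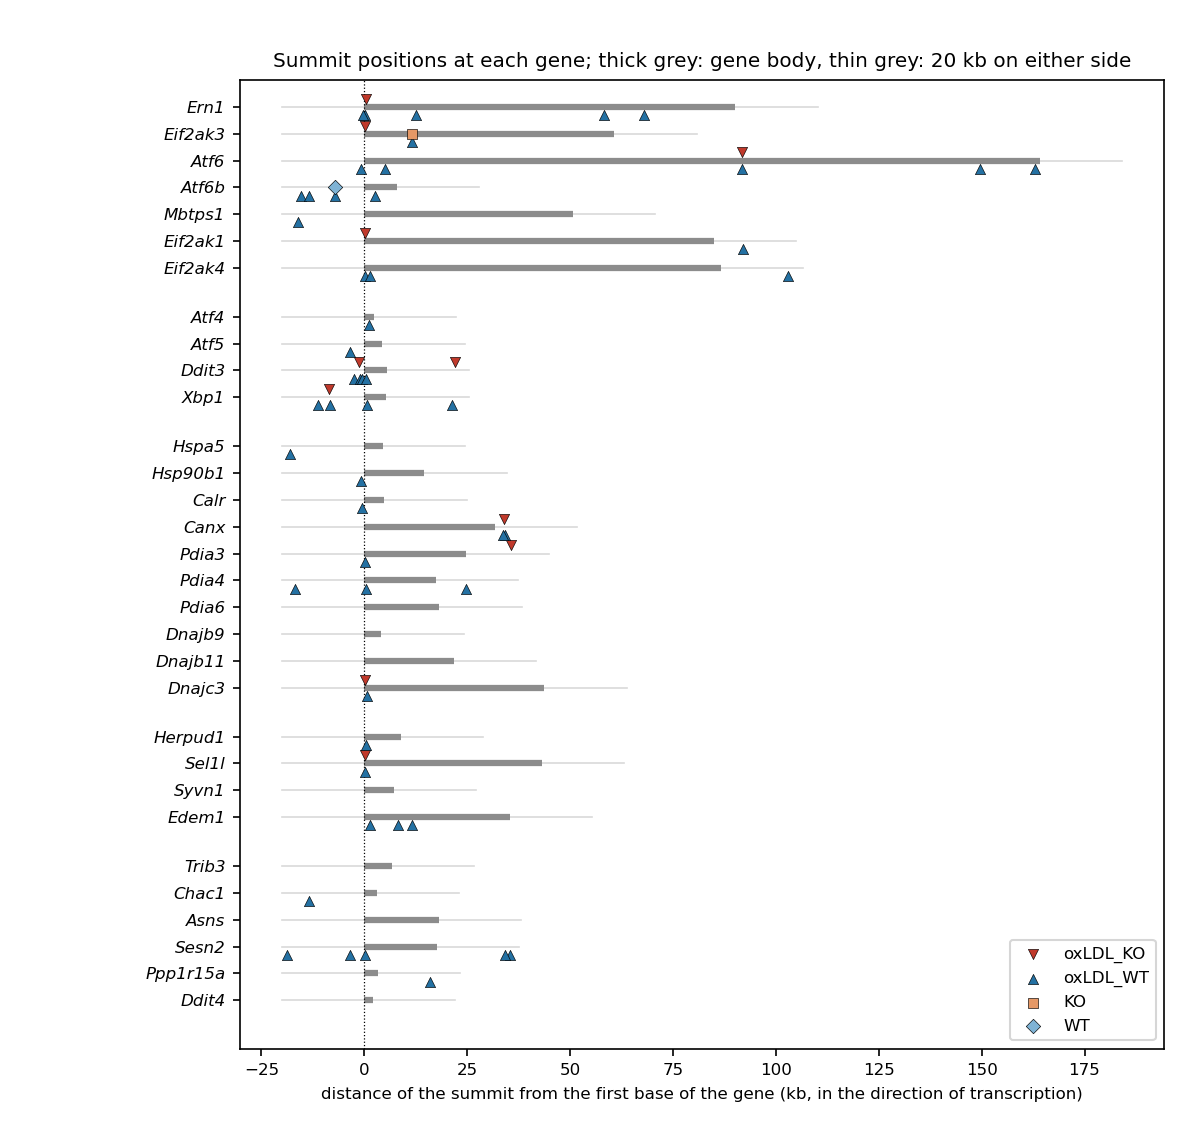
Position of each BRG1 summit (horizontal axis, kb from the first base of the gene in the direction of transcription) at the 31 genes (rows); thick grey bars are gene bodies, thin lines the 20 kb on either side, and Atf6, with no strand given, runs in chromosome order. The oxLDL_KO summits (red) lie at the starts of Ern1, Eif2ak3, Eif2ak1, Dnajc3 and Sel1l and away from the start at the other 5 genes that have them.

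In oxLDL_WT the median fold enrichment was 3.46 over the 10 peaks of the chaperone and folding enzyme genes. It was 3.88 over the 20 peaks of the sensors and 3.75 over the whole list. The median pileups were close, at 16 fragments for the chaperones and 17.5 for the sensors, and the difference was not tested. Dnajc3, which encodes the co-chaperone P58IPK (chromosome 14, 118937932 to 118981702, plus strand), was the chaperone gene with start peaks in both lists. Its oxLDL_KO summit lay 247 bp after the start (3.39, pileup 14) and its oxLDL_WT summit 535 bp after it (3.78, pileup 17), and the 339 bp oxLDL_KO peak lay inside the 851 bp oxLDL_WT one. The ERSE in the sequence shown above, 87 bases or more before the start, was under neither peak. Pdia3, whose disulfide isomerase works with the lectin chaperones, had an oxLDL_KO peak 10.9 kb beyond the gene, inside Serf2 (3.85), and an oxLDL_WT peak 231 bp after its start, where it overlaps Catsper2 (4.20).

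Canx, which encodes the lectin chaperone calnexin, had 1 peak in oxLDL_KO (3.18) and 2 in oxLDL_WT (2.72 and 2.46), all of them 2.02 to 2.49 kb beyond the gene and inside Maml1. The oxLDL_WT peaks were low for their list, with a fold enrichment above that of 3.91% and 1.08% of its peaks. Calr, which encodes calreticulin, had 0 peaks in oxLDL_KO and 1 in oxLDL_WT, 579 bp before the start (3.57). Hsp90b1, which encodes the ER HSP90 paralogue GRP94, had 0 peaks in oxLDL_KO and 1 in oxLDL_WT, 811 bp before the start and inside Ttc41 (3.36). Pdia4 had 0 in oxLDL_KO and 3 in oxLDL_WT, 447 bp after the start (3.36), 16.8 kb before it (3.36) and 7.27 kb beyond the gene (3.99).

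Hspa5, which encodes BiP, the main HSP70 chaperone of the ER and the usual marker of this response (chromosome 2, 34772090 to 34776529, plus strand), had 0 peaks in oxLDL_KO and 1 in oxLDL_WT. That summit lay 18.1 kb before the start, inside Gapvd1, with a fold enrichment of 5.04 and a pileup of 23. No list had a peak in the gene or within 1 kb of it, although its ERSE, at 65 to 47 bases before the start, is in the sequence printed above. Pdia6, Dnajb9 and Dnajb11 had 0 peaks in each of the 4 lists.

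Of the degradation genes, Sel1l, which encodes the adaptor of the HRD1 ubiquitin ligase (chromosome 12, 91806043 to 91849157, minus strand), had 1 peak in each oxLDL list at its start. The oxLDL_KO summit lay 127 bp after the start (3.85, pileup 16) and the oxLDL_WT summit 282 bp after it (4.62, pileup 21), with the 283 bp oxLDL_KO peak inside the 710 bp oxLDL_WT one. Herpud1, which encodes a membrane protein that helps assemble the degradation complex (chromosome 8, 94386429 to 94395371, plus strand), had 0 peaks in oxLDL_KO and 1 in oxLDL_WT. This peak spanned 1212 bp, wider than 97.5% of its list, with a fold enrichment of 4.83, a pileup of 22 and the summit 348 bp after the start. It covered all 250 bases of the sequence shown for Herpud1, the ERSE-II included. Edem1, which encodes a mannosidase-like lectin, had 0 in oxLDL_KO and 3 in oxLDL_WT, all inside the gene (3.78, 3.99 and 3.19). Syvn1, which encodes HRD1 itself, had 0 peaks in each list.

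Of the feedback and effector genes, none had an oxLDL_KO peak. Sesn2, which encodes the stress-induced mTORC1 inhibitor sestrin 2, had 5 oxLDL_WT peaks, with summits 210 bp after the start (3.99), 3.39 kb (3.36) and 18.8 kb (3.78) before it, and 16.6 kb (3.57) and 17.7 kb (3.78) beyond the gene. Chac1, which encodes a glutathione-degrading enzyme, had 1 oxLDL_WT peak 13.4 kb before the start (3.77), nearer to Dll4. Ppp1r15a, which encodes GADD34, the subunit that directs a phosphatase back to eIF2α, had 1 oxLDL_WT peak 12.7 kb beyond the gene, inside Nucb1 and Tulp2 (3.99). Trib3, Asns and Ddit4, which encode a pseudokinase that restrains ATF4, the asparagine synthetase and an mTORC1 inhibitor, had 0 peaks in each of the 4 lists.

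A summit within 1 kb of a listed start was found at 5 of 30 genes in oxLDL_KO (16.7%, background 10.5%) and at 12 of 30 in oxLDL_WT (40%, background 17.3%), and at 0 of 30 in KO (background 0.176%) and in WT (background 0.322%). Of the 9 genes with a listed start and an oxLDL_KO peak, 5 had a start summit (background 46.2%), and of the 23 with an oxLDL_WT peak, 12 did (background 48.7%). Ern1, Dnajc3 and Sel1l had one in both lists (3 of 30, background 7.35%), Eif2ak3 and Eif2ak1 in oxLDL_KO alone, and 9 genes in oxLDL_WT alone. Of the genes with an oxLDL_WT start summit, 25.0% of 12 also had one in oxLDL_KO, against 42.4% of 2852 among all genes; the interval for the stress genes, 8.89 to 53.2, holds the value for all genes. The start summits lay after the start in 5 of 5 cases in oxLDL_KO and in 11 of 15 in oxLDL_WT, where all genes had 78.6% in oxLDL_KO and 72.2% in oxLDL_WT. The median position relative to the start was 239 bp in oxLDL_KO and 231 bp in oxLDL_WT, and over all genes 262 bp in oxLDL_KO and 213 bp in oxLDL_WT.

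A peak reached into the 250 bases before a start at 0 of the 5 genes in oxLDL_KO and at 2 of the 12 in oxLDL_WT, Herpud1 and Eif2ak4. Among all genes with a start summit the shares were 22.4% in oxLDL_KO and 33.2% in oxLDL_WT. Of the 7 genes with an ERSE, a start summit was found at 1 in oxLDL_KO, Dnajc3, and at 3 in oxLDL_WT, Calr, Dnajc3 and Hsp90b1. The elements themselves lay outside these peaks. Of the other motifs searched in the same 250 bases, TGANTCA, the AP-1 site, was found at 4 of the 30 genes, Ddit3, Eif2ak3, Hspa5 and Sel1l, against 6.75% of all promoters. TGACGTGG (UPR element core), TGATGCAAT (C/EBP-ATF response element) and GAGGAAGT (PU.1) were found at 0 of the 30, against 0.563%, 0.167% and 2.44% of all promoters. A match or its absence describes only these letters in this window.

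**Figure D4:**
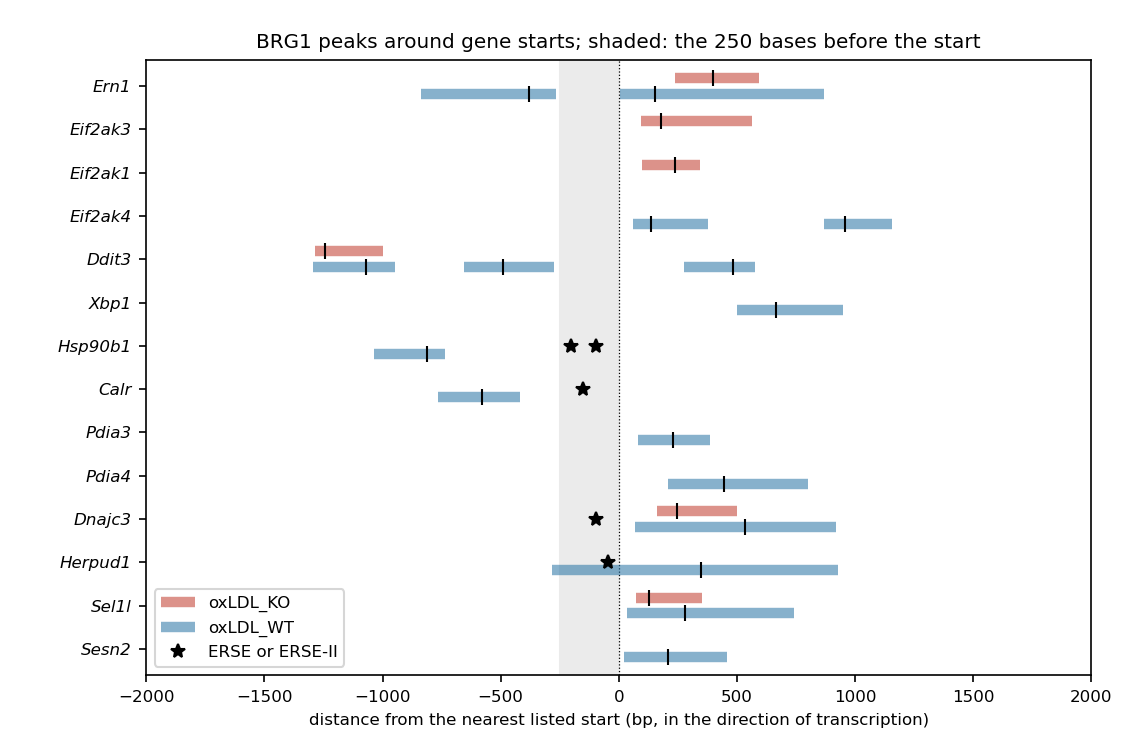
BRG1 peaks (bars, with a tick at the summit) within 2 kb of the nearest listed start (horizontal axis, bp in the direction of transcription) for the 14 genes with a start summit in an oxLDL list; stars mark ERSE or ERSE-II and the shaded band is the 250 bases before the start. Peaks of both lists overlap after the starts of Ern1, Dnajc3 and Sel1l, and only the oxLDL_WT peak of Herpud1 lies over an element; Eif2ak4 has 2 listed starts, and its peaks are drawn from the nearer one.

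Of the 11 oxLDL_KO peaks, 7 shared at least 1 bp with an oxLDL_WT peak (63.6%, interval 35.4 to 84.8), against 59.6% of all oxLDL_KO peaks. Of the 52 oxLDL_WT peaks, 7 shared sequence with an oxLDL_KO peak (13.5%, interval 6.68 to 25.3), against 27.3% of all oxLDL_WT peaks. These 52 peaks lie at 24 genes, 10 of them with more than 1 peak. The interval takes peaks of 1 gene as independent, so it can be too narrow, and the difference was not tested. The shared sites were those at Ern1, Atf6, Ddit3, Xbp1, Canx, Dnajc3 and Sel1l. The pileup, which is not scaled for depth, was lower in oxLDL_KO at 7 of 7, and at 62.7% of all 2782 shared sites. The fold enrichment, which is relative to each library's background, was lower in oxLDL_KO at 4 of 7 and higher at 3, Ern1, Atf6 and Canx, and it was lower at 53.0% of all shared sites. The peak was narrower in oxLDL_KO in 6 of 7, Canx being the exception. The share over all shared sites is not given for width. Peaks of the whole oxLDL_KO list were also narrower, with a median of 309 bp against 368 bp in oxLDL_WT. The summits of a shared site lay 151 to 288 bp apart, with a median of 177 bp, against a median of 96 bp over all shared sites. None of the 7 lay within 100 bp, where 51.6% of all shared sites did, so a shared site here is an overlap of peaks and not a shared summit.

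The 3 oxLDL_WT peaks of the stress genes with the highest −log10 q had no oxLDL_KO counterpart. A −log10 q of at least 10 was reached by 3 oxLDL_WT peaks, at Atf6b, Ern1 and Eif2ak3, and 0 of them overlapped an oxLDL_KO peak, whereas 67.9% of the 405 oxLDL_WT peaks at that limit did. At a limit of 5, 2 of 13 overlapped one, against 46.4% of 2517. These 3 and 13 peaks are few, and neither difference was tested. In oxLDL_KO 0 of the 11 peaks reached a −log10 q of 5, where 19.8% of the whole list did, and 11 peaks are too few to set these shares apart. The highest value at a stress gene there was 4.84, downstream of Ddit3.

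**Figure D5:**
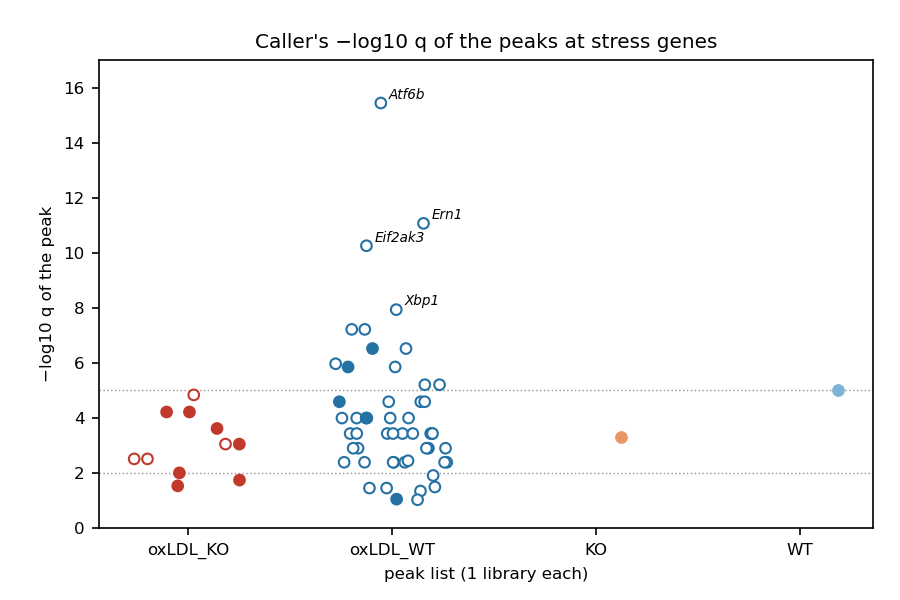
The caller's −log10 q (vertical axis) of each peak at the stress genes in the 4 lists; filled points overlap a peak of the other oxLDL list (for KO and WT, of oxLDL_WT) and dotted lines mark 2 and 5. All oxLDL_KO points lie under 5, and the 3 oxLDL_WT points above 10, at Atf6b, Ern1 and Eif2ak3, are open.

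Between oxLDL_WT and WT, 23 genes had a peak in oxLDL_WT alone (background 34%), 1 in both (background 1.12%), Atf6b, and 0 in WT alone (background 0.14%). Between oxLDL_KO and KO, 9 genes had one in oxLDL_KO alone (background 21.8%), 1 in both (background 0.484%), Eif2ak3, though at different sites, and 0 in KO alone (background 0.102%). The 1 gene with a KO peak thus also had an oxLDL_KO peak, as did 82.6% of all genes with a KO peak, and the 1 gene with a WT peak also had an oxLDL_WT peak, as did 88.9% of all. Between KO and WT, 1 gene had one in KO alone, Eif2ak3 (background 0.44%), 1 in WT alone, Atf6b (background 1.12%), and 0 in both (background 0.145%); of all genes with a WT peak 11.5% had one in KO. The untreated lists called few genes at all, 0.586% in KO and 1.26% in WT, so 1 of 31 in each is a count too small to read. The lowest −log10 p differed between the lists, while the lowest −log10 q was 1.01 to 1.07. Of the 11 oxLDL_KO peaks, 9 had a −log10 p at or above 5.33, the lowest of KO, against 85.7% of all oxLDL_KO peaks. Of the 52 oxLDL_WT peaks, 45 had one at or above 5.13, the lowest of WT, against 80.8% of all oxLDL_WT peaks. These comparisons share lists with each other and are not independent.

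Of 60 autosomal genes of the same pathways outside the 31, 17 had a peak in oxLDL_KO (28.3%, background 22.3%) and 34 in oxLDL_WT (56.7%, background 35.1%). In KO (background 0.586%) and in WT (background 1.26%) 0 had one. This list too was chosen with earlier results of these data known, and no difference was tested. Both oxLDL lists had one at 16 genes (background 18.6%), oxLDL_KO alone at 1, Ssr1 (background 3.76%), and oxLDL_WT alone at 18 (background 16.6%). In oxLDL_KO the highest were at Cebpg, a partner of ATF4 (6.11), Map3k5, the kinase ASK1 (5.42), Ube2j1, a ubiquitin-conjugating enzyme of ER-associated degradation (4.88), and Eif2a, with Tmbim6, a cell death suppressor of the ER membrane, at the same value (4.53). In oxLDL_WT the highest were at Cebpg (6.30), Ube2j1 (5.11), Creb3l2, an ATF6-like factor (5.04), and Dnajb2 (5.01). The Eif2a summit lay 51.3 kb after its start, beyond the gene and nearest to Selenot, and the Dnajb2 summit 17.9 kb before its start, nearest to Tuba4a. The Tmbim6 summit lay inside the gene, and the Map3k5 and Creb3l2 summits within 1 kb of a start. The Cebpg summits lay 0.467 kb after its start in oxLDL_KO and 0.334 kb after it in oxLDL_WT, and the Ube2j1 summits 0.316 kb after its start in oxLDL_KO and 0.293 kb after it in oxLDL_WT, so the highest peaks of both genes lay near the start in both lists.

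Some summits outside a stress gene lay in another gene. The same shares over all genes are not given here, so these counts describe the listed peaks only. Of the 11 oxLDL_KO summits, 6 lay in the body of the stress gene, 3 outside it in another gene and 2 between genes; of the 52 oxLDL_WT summits, 24 lay in the stress gene, 15 in another gene and 13 between genes. A different protein-coding gene was nearer than the stress gene for 4 oxLDL_KO and 21 oxLDL_WT summits. At the edge of the window, summits just inside it included those of Hspa5 at 18.1 kb (5.04) and Sesn2 at 18.8 kb (3.78) in oxLDL_WT. Just outside, Herpud1 had a summit 20.5 kb away in both lists, inside Slc12a3, with 4.98 in oxLDL_KO and 6.26 in oxLDL_WT. Pdia4 had one in both lists, nearest to Zfp398 and Zfp786, 22.48 kb away in oxLDL_KO (2.86) and 22.45 kb away in oxLDL_WT (3.48). Atf4 had an oxLDL_KO summit 20.8 kb away, nearest to Mief1 (3.39). The gene table gives no exons, introns or untranslated regions, so a summit in a gene body was not placed further.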

How the data were processed

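Peak lists of 4 BRG1 ChIP-seq libraries were used, 1 per group, grouped by sample title. Per the submitters' processing notes, bcl2fastq 2.17, Trimmomatic 0.33, Bowtie2, MACS3 and mm10 were used; their parameters, and whether the input served as control, were not stated there. The authors called peaks per library, not on pooled samples. The fold enrichment deposited by the authors is the ratio of summit pileup to local background, the deposited −log10 p and −log10 q values are the caller's, and the deposited score is 10 times −log10 q cut to a whole number. All are the authors' values, used to describe and filter peaks within a list. Per the labels' protocols, an enzymatic ChIP kit was used.

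The 31 genes and all gene lists were chosen with earlier results of these data known. Summits were placed against RefSeq genes of GRCm38.p6, and starts and strands came from the RefSeq promoter table. Peaks lay on 19 chromosomes, none on X or Y, so backgrounds use autosomal protein-coding genes. Pileup and background were solved from fold enrichment, with a pseudocount of 1, and the Poisson p-value; pileups came out whole, within 2% of a step, for 99.9% of peaks in oxLDL_KO, 99.9% in oxLDL_WT, 93.5% in KO and 97.9% in WT. The steps are coarse, so peaks of different genes can share a fold enrichment. Code was tested on simulated data. No test fits 1 library per group, so counts stand beside those of all genes. All 31 genes are accounted for; of the other pathway genes, up to 4 with the highest fold enrichment in each oxLDL list are named. Of 67 symbols written for that list, 61 matched the gene table by symbol, and 60 were autosomal. Ssr1 was named after its value was seen, as the only gene of its kind. Overlap means at least 1 bp. Python 3.11.15, pandas 2.3.3, numpy 2.4.6, scipy 1.17.1 and matplotlib 3.10.9 were used. Alternative windows, limits, gene assignments and overlaps were tried.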

Additional observations from a re-analysis of the deposited data

Results flagged for a closer look

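The inner site of Eif2ak3, 11.5 kb after its start, was listed for opposite genotypes with and without oxLDL. Without oxLDL it was listed in KO, with a fold enrichment of 4.13, and not in WT; with oxLDL it was not listed in oxLDL_KO, and was listed in oxLDL_WT, with 5.88. Of all 139 KO peaks, 33.8% overlapped a WT peak, 69.8% an oxLDL_KO peak and 71.9% an oxLDL_WT peak. Of all oxLDL_WT peaks, 27.3% overlapped an oxLDL_KO peak. A KO peak without a WT peak, or an oxLDL_WT peak without an oxLDL_KO peak, was thus common and not particular to this site. The pattern was not tested, since each group is 1 library and a missing peak has no value.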

How the results depend on the processing

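No paired analysis was possible because each group has 1 library and no result comes from a test; leaving out a replicate was not possible either. Differences here are genes with a peak in the first list minus those in the second. For oxLDL_KO against oxLDL_WT the difference was -14 (10 against 24), and it became -9 with gene bodies only (6 against 15), -8 within 1 kb of gene ends (5 against 13), -9 within 50 kb (17 against 26), -9 at a −log10 q of at least 5 (0 against 9) and -9 with the nearest gene only (7 against 16). The count of genes with a peak in oxLDL_KO alone, 0, became 1, Eif2ak1, with gene bodies only, the nearest gene only, a −log10 q limit of 2 or the common p limit, and 2, Eif2ak1 and Eif2ak3, within 1 kb of gene ends. For KO against WT the difference was 0 (1 against 1) and became 1 with gene bodies only, 1 within 50 kb and 1 with the nearest gene only. For oxLDL_WT against WT it was 23, and became 15 with gene bodies only, 13 within 1 kb of gene ends and 9 at a −log10 q of at least 5. For oxLDL_KO against KO it was 9, and became 5 with gene bodies only, 5 within 1 kb of gene ends, 15 within 50 kb and 0 at a −log10 q of at least 5. Smaller windows hold fewer peaks by construction. Shares over all genes are not given for these alternative settings. The counts therefore do not show whether the stress genes still differ from all genes under them. The remaining settings kept each value within 1.5 times of its main one; among them, a −log10 q limit of 2, a common p limit, leaving out high-background peaks and placing peaks by any base did so for all 4 differences. Of peak overlaps, 7 in both directions, 0 were left with summits within 100 bp, and 0 of the 13 oxLDL_WT peaks left by a −log10 q limit of 5 applied to both lists, where no oxLDL_KO peak of these genes remained. Depth, which is unknown from peak lists, and the caller's limit both bound what an absent peak shows. The lowest pileup listed was 12 fragments in oxLDL_KO, 12 in oxLDL_WT, 15 in KO and 12 in WT. These values do not measure depth.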
